A study of Mus musculus with 35 samples.

Results

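The Paneth cell antimicrobial genes described here are Lyz1, Defa42, Mmp7, Ang4, Reg3g, Reg3b and Itln1. They are 7 of the 20886 genes named on the array, and 9 of its 39429 probes read them, with 2 probes each for Defa42 and Itln1. They were picked from these arrays because they reached the level of whole intestine in resident memory T cells of the intestine. Their values in intestine Trm, whole intestine and the comparisons between them are therefore a description and carry no test. Expression was measured on 35 one-colour arrays in 8 groups. The 4 sorted groups were CD8+ resident memory T cells (Trm) from small intestine (n = 6), lung (n = 6) and liver (n = 5), and CD8+ effector memory T cells (Tem) from peripheral blood (n = 6). The unsorted groups were whole intestine, whole lung, whole liver and whole PBMC, the mononuclear cells of blood (n = 3 each). The mice were all untreated C57BL/6 females without a mutation, labelled healthy wild type, and their ages ran from 8 to 16 weeks. Trm were enriched from dissociated organs by magnetic selection for CD8b and then CD103, and Tem were CD8b+ cells depleted of CD62L+ cells. Magnetic enrichment leaves some cells of other types, and the labels do not say which arrays share an animal. P-values therefore measure only the spread between these samples, which may be technical in part.

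Paneth cells sit at the base of the crypts of the small intestine and release granules of antimicrobial proteins into the lumen. Lysozyme cuts bacterial cell walls, alpha-defensins disrupt bacterial membranes, and Ang4 is a secreted ribonuclease with antimicrobial activity. In the mouse, matrilysin (Mmp7) cleaves alpha-defensin precursors into their active form. Reg3g and Reg3b are secreted C-type lectins that bind bacteria and are also made by enterocytes, and intelectin 1 (Itln1) is a lectin that binds microbial sugars.

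Several of these genes have close relatives beside them. Lyz1 and Lyz2, the lysozyme of macrophages and other myeloid cells, are neighbours on chromosome 10, and the Reg genes form a cluster on chromosome 6. Probe sequences are not used here, so binding of a probe to a relative was not tested. Promoters of 300 bases, which end 50 bases after the start of the gene, are given in the next lines for the lysozyme pair, the Reg3 pair and Defa42, because the results turn on how these relatives differ. They are RefSeq sequences of GRCm38.p6, which is not the build of the array's design. Capitals mark matches to the letters searched on both strands, which were TATAAA for the TATA box, TTCNNNGAA for a STAT site, CTTTGAT for a TCF/LEF site, GATAAG for the GATA site and TGANTCA for an AP-1 site. The windows are chr10:117292819-117293118 (Lyz1, minus strand), chr10:117282223-117282522 (Lyz2, minus), chr6:78468825-78469124 (Reg3g, minus), chr6:78370635-78370934 (Reg3b, plus) and chr8:21456468-21456767 (Defa42, minus).
Lyz1: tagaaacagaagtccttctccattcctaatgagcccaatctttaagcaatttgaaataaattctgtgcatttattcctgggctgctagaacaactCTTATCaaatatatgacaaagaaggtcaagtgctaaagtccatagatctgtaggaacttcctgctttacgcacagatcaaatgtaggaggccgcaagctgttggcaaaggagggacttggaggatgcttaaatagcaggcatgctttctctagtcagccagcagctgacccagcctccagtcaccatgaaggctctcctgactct
Lyz2: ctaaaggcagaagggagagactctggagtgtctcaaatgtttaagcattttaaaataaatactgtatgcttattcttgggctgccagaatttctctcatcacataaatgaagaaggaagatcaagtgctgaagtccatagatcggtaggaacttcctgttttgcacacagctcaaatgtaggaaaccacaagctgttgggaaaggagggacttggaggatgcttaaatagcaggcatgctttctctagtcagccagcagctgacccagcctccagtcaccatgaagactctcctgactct
Reg3g: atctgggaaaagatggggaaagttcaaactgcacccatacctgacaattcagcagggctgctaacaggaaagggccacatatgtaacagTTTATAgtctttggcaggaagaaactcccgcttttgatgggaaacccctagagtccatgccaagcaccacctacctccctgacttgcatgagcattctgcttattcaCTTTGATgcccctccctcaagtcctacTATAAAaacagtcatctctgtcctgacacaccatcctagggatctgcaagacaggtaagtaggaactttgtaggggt
Reg3b: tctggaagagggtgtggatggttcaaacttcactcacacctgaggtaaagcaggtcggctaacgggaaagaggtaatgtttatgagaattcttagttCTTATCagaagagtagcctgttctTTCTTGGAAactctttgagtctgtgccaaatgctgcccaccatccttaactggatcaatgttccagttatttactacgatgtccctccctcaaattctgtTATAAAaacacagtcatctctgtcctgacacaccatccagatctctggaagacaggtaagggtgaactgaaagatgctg
Defa42: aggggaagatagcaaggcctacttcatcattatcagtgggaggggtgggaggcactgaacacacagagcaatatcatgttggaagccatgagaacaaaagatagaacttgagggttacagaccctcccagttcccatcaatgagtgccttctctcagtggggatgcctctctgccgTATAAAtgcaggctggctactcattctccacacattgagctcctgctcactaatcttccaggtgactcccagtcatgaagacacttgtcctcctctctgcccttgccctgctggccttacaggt
The lysozyme promoters were alike around the start, with a shared run of 86 bases from position -50 (the start base is 0) and 141 of the last 150 bases identical. Reg3g and Reg3b shared a run of 29 bases from position -20 in both. TATAAA began at -27 in Reg3g, at -29 in Reg3b and at -74 in Defa42, and Reg3g held a further match on the opposite strand at -161. Of 27025 promoters of this length, 14.2% held TATAAA. The letters CTTTGAT were found in Reg3g at -54, and 3.72% of promoters held it. TTCNNNGAA was found in Reg3b at -129 (8.47% of promoters), and GATAAG on the opposite strand at -153 in Reg3b and at -155 in Lyz1 (7.43% of promoters). TGANTCA was in none of these windows and in 7.93% of all promoters. These matches describe letters and are not shown to be used.

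Values below are scaled log2 intensities, in which 0 is the 75th percentile of an array's probes detected on all arrays. A probe was counted as detected where the scanner software marked it well above background. The 6 arrays of intestine Trm had 21.7% to 35.5% of probes detected, against 29.3% to 40.7% in whole intestine, and whole PBMC reached only 7.80% to 24.8%. All 10 T cell genes of a fixed list that had a probe were detected on every sorted array. Itgae, which encodes CD103, had no probe named by it. Whole liver 2 stood apart, with 64.6% of probes detected and 10 of 12 other alpha-defensins above background where whole liver 1 and 3 had 0. All sorted arrays shared a scan date in the file headers, all unsorted arrays shared another, and no slide held both kinds. Scan date, slide and sorting thus cannot be told apart in any comparison of Trm with whole organ. In such bulk samples, fewer cells of a type and less RNA per cell cannot be told apart either.

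The genes were detected mainly in the 2 intestinal groups. On intestine Trm arrays 1 to 5 all 7 genes were detected, and 5 were detected on array 6, against 7 on each of the 3 whole intestine arrays. Outside the intestine, Lyz1 was detected on every lung array, sorted or whole, and Defa42, Itln1 and Reg3g on a few arrays, while Ang4, Mmp7 and Reg3b were detected on none. The plot of member probes by array shows this order.

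**Figure D1:**
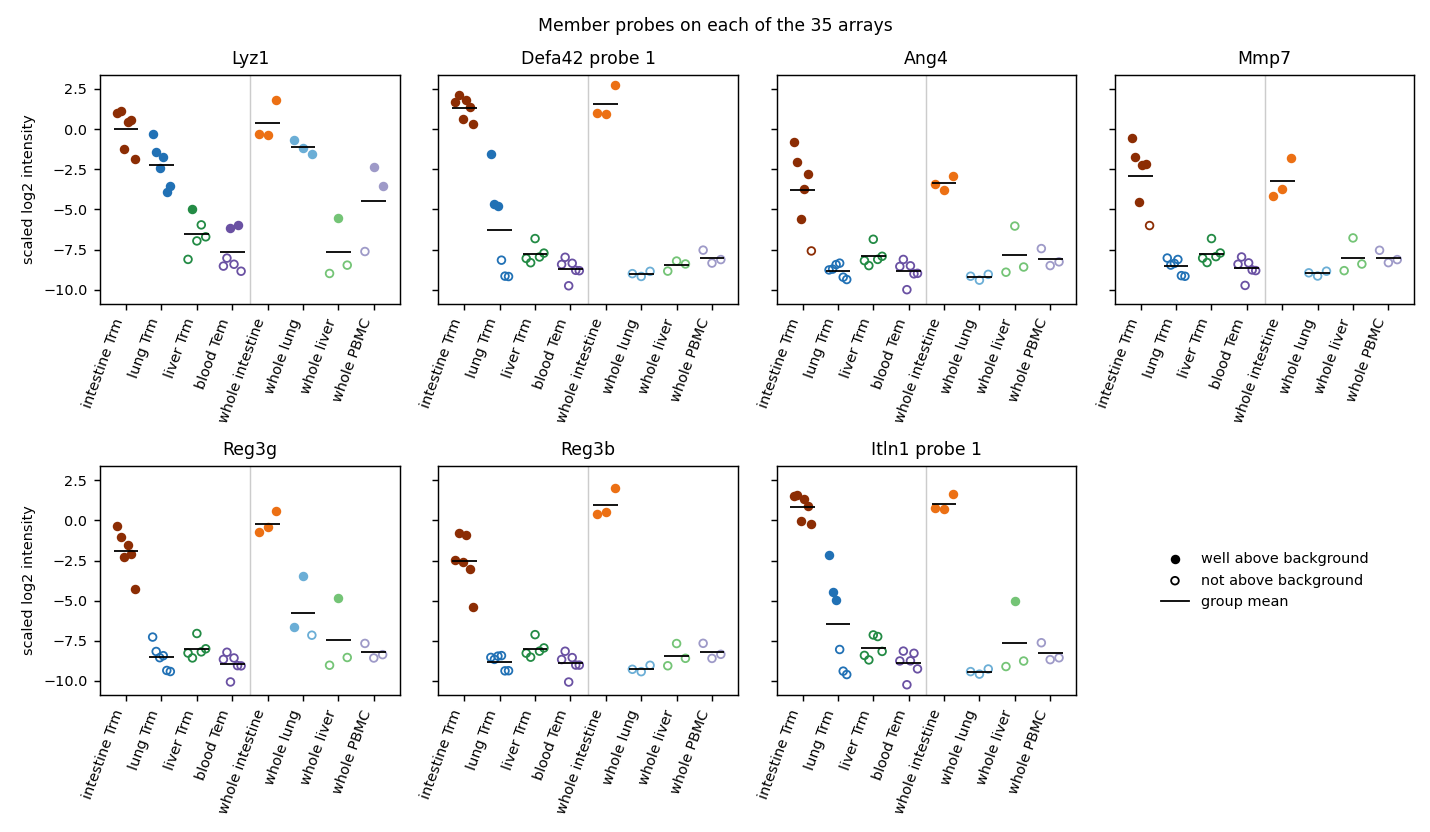
Scaled log2 intensity (vertical axes) of 1 probe of each gene on each array, by group, with sorted cells left of the grey line and whole tissues right of it. Filled points are well above background, open points are not, and lines are group means. Ang4, Mmp7 and Reg3b have filled points in intestine Trm and whole intestine only, while Lyz1 is filled on all lung Trm and whole lung arrays.

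Lyz1 read 0.98, 1.1, -1.27, 0.42, 0.55 and -1.84 in intestine Trm 1 to 6, against -0.32, -0.35 and 1.80 in whole intestine. The ranges overlapped, and the means were -0.01 ± 1.24 in intestine Trm and 0.37 ± 1.23 in whole intestine (SD). Lung Trm read -0.29, -1.43, -2.45, -1.71, -3.90 and -3.54, with whole lung at -0.68, -1.19 and -1.57. Every lung array was thus detected, and the ranges of lung Trm and whole lung overlapped. Blood Tem read -8.53, -8.03, -6.16, -8.42, -5.97 and -8.85 and was detected on arrays 3 and 5 only. Liver Trm (-8.11, -4.96, -6.96, -5.97 and -6.71) was detected on array 2 only. In whole liver, at -8.99, -5.55 and -8.47, array 2 was detected. Whole PBMC, at -7.62, -2.38 and -3.52, was detected on arrays 2 and 3. Ordered by group mean, whole intestine came first, then intestine Trm, whole lung, lung Trm, whole PBMC, liver Trm, blood Tem and whole liver, and each neighbour overlapped the next in range.

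Lyz1 was the member that separated lung Trm from blood Tem. It was higher in lung Trm by 5.61 ± 0.64 on the log2 scale (SE, limma, adjusted p = 1.39e-05). Tem was above background on 2 of 6 arrays, so the size depends in part on undetected signal. Lung Trm was above Tem on 6 of 6 slides, by 2.55 to 8.27. Lyz1 was the 1 member called in this comparison, where 3.13% of all genes were called, 2.1% higher and 1.03% lower. Over the alternatives tried, the adjusted p ran from 1.35e-08 with array weights to 0.00145 without lung Trm 1, 2 and 3. Genes of myeloid cells moved with it: 6 of 11 on the fixed list that were in the fit were higher in lung Trm, with a median difference of 3.32 where the median over all genes was -0.10. The summed linear level of that list was 3.11 to 5.56 in lung Trm and 2.01 to 5.03 in blood Tem. The myeloid list also had 5 of 11 higher and 0 lower in liver Trm against Tem, where Lyz1 was not called and 14.9% of all genes were higher. Genes of lung epithelium moved with Lyz1 too: 4 of 8 in the fit were higher in lung Trm than in Tem and 0 lower, with a median difference of 4.70. The mouse ribonucleases Ear1, Ear2 and Ear10, of the same superfamily as Ang4, were also called higher (adjusted p = 0.000204, 3.93e-06 and 4.12e-05). They were detected on 5, 6 and 5 of 6 lung Trm arrays and on 0, 1 and 1 of 6 Tem arrays, while the Ang4 probe was detected on no lung Trm or Tem array. The part of myeloid or lung epithelial cells in the Lyz1 difference was not tested.

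The Lyz2 probe followed a different order from the Lyz1 probe, at signals mostly near or below the detection limit. It was detected on 4 of 6 lung Trm, 3 of 3 whole lung and 1 of 3 whole liver arrays (array 2). It was detected on none of intestine Trm, whole intestine, liver Trm, blood Tem or whole PBMC. In whole lung it read -6.71 to -6.55, where the lowest detected signal of any probe was -7.29 to -6.97 by array. Whether the Lyz1 probe also reads Lyz2 was not tested. In intestine Trm the Lyz2 probe read -5.79 to -7.73, where Lyz1 was detected on all 6 arrays. It was higher in lung Trm than in Tem by 1.79 ± 0.47 (adjusted p = 0.0343). Against whole lung, the Lyz1 difference in lung Trm was -1.08 ± 0.94 (adjusted p = 0.398) and that of Lyz2 0.45 ± 0.61 (adjusted p = 0.602), neither called. Whole lung exceeded whole liver in Lyz1 by 6.53 ± 1.08 (adjusted p = 1.42e-05), the 1 member called there against a background of 23% of genes called (12.1% higher, 11% lower). The liver Trm difference from Tem, 1.51 ± 0.67, missed the threshold (adjusted p = 0.0718), where 40.3% of genes were called, 14.9% higher and 25.4% lower. It passed without liver Trm 1 or without Tem 5 (adjusted p = 0.0281 and 0.0352), and also with array weights or no filter on dim probes (adjusted p = 0.0177 and 0.0408). Few of those arrays were detected, and the dim probes of liver Trm sat higher as a whole. The median of 9383 probes detected on no array averaged -7.97 in liver Trm and -8.90 in Tem on the all-array scale. On the scale of the sorted arrays, used for the Lyz1 difference, that median was -8.19 to -5.75 by array in liver Trm. In Tem it was -10.2 to -7.72. How much of the Lyz1 difference this makes up was not tested.

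Defa42, an alpha-defensin, was detected with both probes on every intestinal array. Its first probe read 1.66, 2.10, 0.61, 1.78, 1.38 and 0.29 in intestine Trm 1 to 6, against 1.01, 0.94 and 2.74 in whole intestine. The second probe gave 1.16 ± 0.67 in intestine Trm and 1.56 ± 0.92 in whole intestine (SD), with overlapping ranges for both probes. In lung Trm the first probe read -1.58, -4.67 and -4.82 on arrays 1, 2 and 3, all detected, and -8.16, -9.16 and -9.18 on arrays 4, 5 and 6, none detected. Lung Trm thus split into detected and undetected arrays within 1 group. No array of liver Trm, blood Tem, whole lung, whole liver or whole PBMC was detected with either probe.

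Mmp7, the protease that matures alpha-defensins, read -0.56, -1.76, -4.56, -2.27, -2.20 and -6.01 in intestine Trm 1 to 6, and the last was not detected. Whole intestine read -4.15, -3.76 and -1.82. Mmp7 was the member whose mean was higher in intestine Trm than in whole intestine, -2.89 ± 2.00 against -3.25 ± 1.25 (SD), with overlapping ranges. In the 6 other groups it was detected on no array.

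Ang4 read -0.81, -2.05, -5.63, -3.73, -2.80 and -7.59 in intestine Trm 1 to 6, the last not detected, and -3.44, -3.80 and -2.93 in whole intestine. Intestine Trm arrays lay on both sides of the whole intestine range, 3 above it and 2 below. Its relative Ang2 was detected on 4 of 6 intestine Trm and 3 of 3 whole intestine arrays, and was higher in intestine Trm than in Tem (-4.71 and -8.31 on the scale of the sorted arrays, adjusted p = 0.000667). Ang, another relative, was detected on 3 of 3 whole liver arrays and on 1 array each of intestine Trm, lung Trm and whole intestine. Ang2 was also detected on 1 of 3 whole liver arrays. Ang4 and Ang2 thus shared the intestine as the site of most detected arrays, and Ang was detected mainly in whole liver. The Ang2 probe read -2.64, -4.27, -7.05, -5.46, -4.44 and -7.98 in intestine Trm 1 to 6, which ranks the arrays as the Ang4 probe does. Whether the Ang2 probe also reads Ang4 was not tested. Among sorted groups Ang2 was detected in intestine Trm only, through which it entered the fit against Tem.

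Reg3b and Reg3g went against the reason for which the genes were picked. Reg3b read -2.47, -0.80, -2.61, -0.91, -3.06 and -5.41 in intestine Trm 1 to 6, against 0.39, 0.53 and 2.01 in whole intestine. Every intestine Trm array lay below every whole intestine array, and the mean difference was -3.52, a ratio of 0.0871. Reg3g read -0.38, -1.06, -2.27, -1.51, -2.08 and -4.26, against -0.73, -0.44 and 0.55. Here 5 of 6 intestine Trm arrays lay below all of whole intestine, and the mean difference was -1.72. Both stayed detected on all 6 intestine Trm arrays, and both were undetected in every other sorted array.

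Of their relatives in the cluster, Reg3a and Reg1 were lower in intestine Trm. Reg3a was detected on no intestine Trm array and on 3 of 3 whole intestine arrays, with means of -8.08 and -0.27 (adjusted p = 4.86e-14). It entered the fit through whole intestine alone, the group where it was bright. Reg1, detected on 4 of 6 and 3 of 3, had means of -5.51 and 0.69 (adjusted p = 8.07e-07). Reg2 and Reg3d, also in the cluster, were detected on too few arrays to enter the fit. Reg2 was detected on 1 of 6 and 0 of 3, with means of -7.31 and -9.19. Reg3d was detected on 1 of 6 and 2 of 3, with means of -7.67 and -6.19. Reg4, a relative on chromosome 3, was not called (-5.82 and -4.28, adjusted p = 0.081). In the intestine Trm against whole intestine fit, 31.8% of all genes were called, 11.7% higher and 20.1% lower.

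Outside the intestine Reg3g was detected on whole lung 1 and 2 and on whole liver 2. Whole lung read -6.67, -3.46 and -7.15 and whole liver -9.02, -4.82 and -8.54. Lung Trm was detected on no array, with values of -7.27 to -9.41, and lay below whole lung by 2.77 ± 0.76 in the limma fit (adjusted p = 0.0033), which the detection limit allows as at least 1.96-fold. This rested on whole lung 2, and without it the difference was -1.62 (adjusted p = 0.122). Whole lung and whole liver differed in Reg3g by 1.70 ± 0.88 (adjusted p = 0.161), and by 3.02 without whole liver 2 (adjusted p = 0.00893). The call was also made with array weights, after quantile normalization, in the deposited table and when all probes set the scale (adjusted p = 6.84e-05, 0.00665, 0.00665 and 0.0417). Reg3b was detected on none of these arrays.

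Itln1 read 1.52, 1.59, -0.05, 1.34, 0.92 and -0.21 with its first probe in intestine Trm 1 to 6, against 0.77, 0.68 and 1.67 in whole intestine. The second probe read lower in intestine Trm, 0.08 ± 1.09 against 0.82 ± 0.66 in whole intestine (SD), and the ranges overlapped with either probe. In lung Trm the first probe was detected on arrays 1, 2 and 3 at -2.14, -4.45 and -4.94, and not on arrays 4, 5 and 6 at -8.04, -9.39 and -9.60. The second probe was detected on lung Trm 1 only, at -3.62, so the probes disagreed on arrays 2 and 3. Whole liver 2 was detected with the first probe at -4.99 and not with the second at -7.12.

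Set against blood Tem, all 7 genes had every intestine Trm array above every Tem array, as their choice implies. The background of that comparison was 17.7% of genes called, 8.1% higher and 9.65% lower, and nothing is read from the members' count. Because 6 of the 7 were detected on no Tem array, their size can only be bounded. Intestine Trm was at least 318-fold higher for the first Defa42 probe, 232-fold for the first Itln1 probe, 33.9-fold for Reg3g, 22.1-fold for Reg3b, 17.4-fold for Mmp7 and 9.46-fold for Ang4. For Lyz1, detected on 2 of 6 Tem arrays, the difference was 7.85 on the log2 scale, and its Tem mean rests in part on arrays not above background.

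The members kept a like order over the intestine Trm arrays. Array 6 was the lowest for 9 of 9 probes and array 3 the next lowest for 8 of 9, while array 2 was the highest for 6 probes and array 1 for 3. The spread was widest for Ang4, from -7.59 to -0.81, and among the narrowest for Defa42, from 0.29 to 2.10. T cell genes did not follow this order, since their summed linear level was 4.58 on array 6, 8.22 on array 3, 3.56 on array 2 and 5.45 on array 1. The summed goblet cell level was 0.12 on array 6, 0.19 on array 3, 0.97 on array 2 and 1.26 on array 1. The summed enterocyte level was 0.42, 0.28, 1.48 and 1.00 on arrays 6, 3, 2 and 1, so that array 3 and not array 6 was lowest. The part of epithelial cells in this order was not tested.

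**Figure D2:**
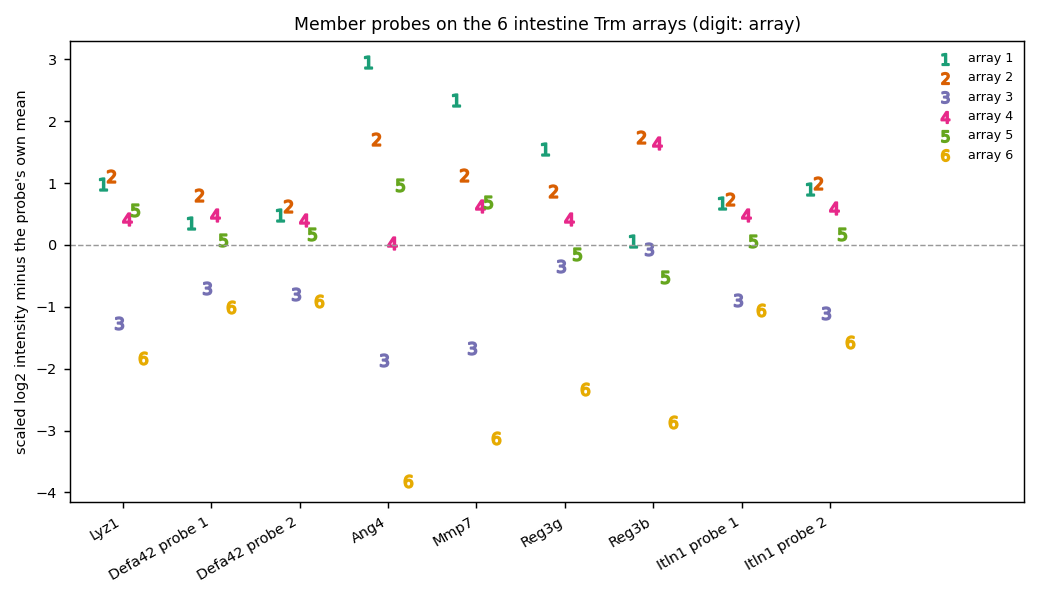
Scaled log2 intensity minus the probe's own mean (vertical axis) for the 9 member probes (horizontal axis) on the 6 intestine Trm arrays, each marked by its array number. Array 6 is lowest for all 9 probes and array 3 next lowest for 8.

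Other alpha-defensin genes were detected on all whole intestine arrays and on 5 or 6 of 6 intestine Trm arrays. Of 30 listed, 12 had a probe named by them. Outside the intestine Defa42 was detected on lung Trm 1, 2 and 3 only. Some of the others were detected in further groups. Defa23 was detected on 4 of 5 liver Trm, 2 of 6 Tem and 3 of 3 whole lung arrays, and Defa3 on 3 of 5 liver Trm and 1 of 6 Tem arrays. All 12 were called higher in intestine Trm than in blood Tem, where 8.1% of all genes were. Their median difference was 9.00 against -0.03 over all genes. Detection in intestine Trm was enough to let each of the 12 into that fit, and they are relatives of a member picked for that level. Nothing is therefore read from this count. Defa40 averaged 1.49 in intestine Trm and -8.65 in Tem on the scale of the sorted arrays (adjusted p = 6.98e-08). Defa29 averaged 1.44 and -8.58 (adjusted p = 6.98e-08), and both were detected on 6 of 6 and 0 of 6 arrays. Against whole intestine 0 of 12 were called by limma, where 31.8% of all genes were. Their median difference was -0.08, with fitted differences of -0.92 to 2.02. The highest was that of Defa21, at 0.39 in intestine Trm and -1.64 in whole intestine (adjusted p = 0.0763), followed by Defa32 at 1.25 and -0.52 (adjusted p = 0.214). The standard errors of 0.67 to 1.11 leave room for differences of either sign. Alpha-defensins resemble each other in sequence, and how far the 12 probes and the pair for Defa42 read separate genes was not tested.

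Genes of other epithelial cells differed from this in their counts. In intestine Trm against whole intestine, 11.7% of all genes were called higher and 20.1% lower, with a median difference of -0.01. Of the enterocyte genes 22 of 22 were lower, with a median difference of -6.28. Lct, the brush border lactase, averaged -7.97 in intestine Trm and 1.09 in whole intestine (adjusted p = 6.52e-14), and the retinol carrier Rbp2 -8.10 and 0.50 (adjusted p = 1.46e-13). Of the goblet cell genes 11 of 11 were lower, with a median of -3.34, among them Zg16 at -5.41 and 0.96 (adjusted p = 5.31e-09) and the mucus protein Fcgbp at -4.81 and 1.02 (adjusted p = 3e-10). Muc2, the main goblet cell mucin, was detected on no intestine Trm array. Other goblet cell genes were: of 12 with a probe, 7, 8, 6, 6, 9 and 2 were detected on intestine Trm 1 to 6. Enteroendocrine and tuft cell genes were lower for 7 of 8, such as the hormone genes Cck at -8.53 and -1.36 (adjusted p = 1.81e-15) and Sct at -7.85 and -1.12 (adjusted p = 1.51e-12). The 10 T cell genes were all higher in intestine Trm, with a median of 4.97. The difference between these lists and the antimicrobial genes was not tested, and their medians rest in part on probes that are not above background in the dimmer group. The filter also shapes the counts, since a gene could enter this fit through whole intestine alone. Among the sorted arrays only 9 enterocyte, 8 goblet cell and 1 enteroendocrine or tuft cell gene passed it, and the rest entered through a whole tissue. The counts of lower genes are therefore not read as a test.

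**Figure D3:**
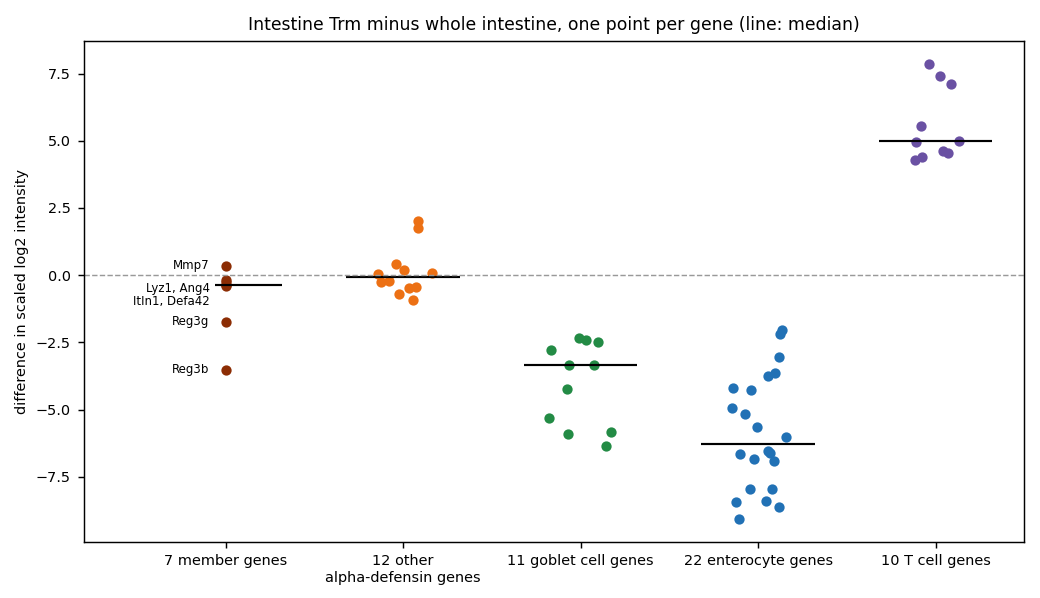
Difference in scaled log2 intensity between intestine Trm and whole intestine (vertical axis), with 1 point per gene and a line at each list's median. Defa42, Lyz1, Ang4, Itln1 and Mmp7 lie between -0.38 and 0.35, Reg3g and Reg3b at -1.72 and -3.52, the 12 other alpha-defensins spread from -0.92 to 2.02 around a median of -0.08, and goblet cell and enterocyte genes have medians of -3.34 and -6.28.

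A further list of genes linked to Paneth cells, which also holds genes of wider use, had 14 members in the fit against Tem. Of these 9 were higher in intestine Trm and 0 lower, with a median of 2.27, where 8.1% of all genes were higher and 9.65% lower. Other lists also held genes higher than in Tem. They were 5 of 8 goblet cell genes (0 lower, median 2.63) and 5 of 9 enterocyte genes (1 lower, median 2.62). Of pancreatic acinar genes 3 of 6 were higher and 0 lower (median 3.68). Genes could enter this fit through detection in intestine Trm alone, and none of these counts is read as a test. Within the list linked to Paneth cells, Clps, the cofactor of pancreatic lipase, had the largest difference. It averaged -0.93 in intestine Trm against -8.29 in Tem (adjusted p = 2.14e-05). Xbp1, a transcription factor of secretory cells, averaged 0.56 and -2.03 (adjusted p = 0.000111), and the chemokine Ccl6 -2.84 and -6.41 (adjusted p = 0.00269). Pancreatic acinar genes, which include Clps, were detected for 18 of 18 on intestine Trm 5 and 11 on intestine Trm 3, but for 3 or 4 on the other 4 arrays and for 4 or 5 in whole intestine. Of the genes linked to Paneth cells, 2 of 19 were higher in intestine Trm than in whole intestine and 4 lower, shares near the 11.7% and 20.1% over all genes. Guca2a, the guanylin precursor, averaged -4.56 and -0.92 (adjusted p = 1.64e-05), the receptor Fgfr3 -7.82 and -4.94 (adjusted p = 9.88e-05), and the potassium channel Kcnn4 -4.49 and -7.38 (adjusted p = 0.00398).

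The lung Trm arrays split into 2 sets. Lung Trm 1, 2 and 3 carried Defa42 and Itln1 above background together with 11, 9 and 8 of the 12 other alpha-defensins, while lung Trm 4, 5 and 6 had 0, 1 and 3. The summed linear alpha-defensin level was 3.40, 0.72 and 0.52 on the first 3 arrays and 0.06, 0.05 and 0.06 on the others, against 0.02 to 0.08 in blood Tem and 9.45 to 33.3 in intestine Trm. Ang4, Mmp7, Reg3g and Reg3b were detected on none of the 6. Genes of lung epithelium were also higher on the first 3 arrays, with summed levels of 8.45, 5.59 and 4.59 against 1.26, 1.28 and 0.18. The hepatocyte list split the same way, at 2.05, 0.82 and 0.90 against 0.23, 0.20 and 0.18. The myeloid list did not, at 4.95, 4.53 and 3.93 against 5.56, 3.11 and 3.46. The first 3 arrays sat on slides 1, 2 and 3, which also held intestine Trm 1, 2 and 3, and the other arrays sat on slides that held the remaining intestine Trm arrays. Blood Tem on slides 1, 2 and 3 had 0 of 12 alpha-defensins detected, and liver Trm had 0, 2 and 1. What set the arrays apart was not tested.

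**Figure D4:**
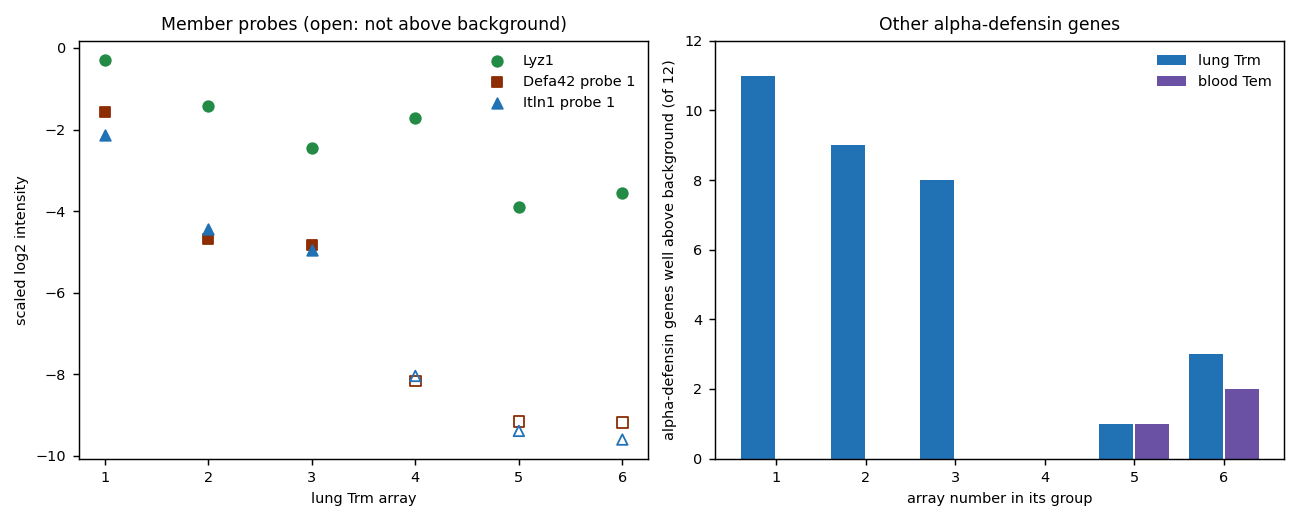
Left, scaled log2 intensity (vertical axis) of Lyz1, Defa42 and Itln1 on the 6 lung Trm arrays (horizontal axis), with open symbols not above background. Right, number of the 12 other alpha-defensin genes detected on each lung Trm and blood Tem array. Lung Trm 1, 2 and 3 have 11, 9 and 8, and no Tem array has more than 2.

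The lung calls for Defa42 and Itln1 changed with the arrays used. Against blood Tem, Defa42 differed by 2.60 ± 0.91 (adjusted p = 0.143) and Itln1 by 2.65 ± 0.92 (adjusted p = 0.141), neither called, although both passed without lung Trm 6 (adjusted p = 0.0479 and 0.0386). Of the 12 other alpha-defensins, 1 was called (Defa38, adjusted p = 0.039), and 0 were without lung Trm 1, 2 or 3 or without any one of Tem 1 to 5. Against whole lung, where 41.6% of genes were called, 15.7% higher and 25.8% lower, 3 of the 7 members were called. Defa42 was higher by 2.75 ± 0.93 (adjusted p = 0.0165) and Itln1 by 2.99 ± 1.01 (adjusted p = 0.0161), at least 1.83-fold and 1.63-fold given that no whole lung array was detected, and Reg3g was lower as given above. Of the other alpha-defensins 8 of 12 were higher, with a median of 2.40 against 0.09 over all genes. Without lung Trm 1, 2 and 3, the lung Trm arrays on which these 2 genes were detected, the differences were 0.18 for Defa42 and 0.41 for Itln1, a drop that the choice of arrays fixes. Without lung Trm 1 alone the Itln1 difference was 2.13 (adjusted p = 0.0501). Without whole lung 2 the Defa42 and Itln1 differences were 2.67 and 2.91 (adjusted p = 0.0572 and 0.0553), and with only the 2 groups in the fit the adjusted p was 0.161 and 0.125.

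In liver no member was called. Against whole liver, with a background of 32.2% of genes called, 8.53% higher and 23.7% lower, Lyz1 differed by 1.13 ± 0.97, Itln1 by -0.31 ± 1.04 and Reg3g by -0.55 ± 0.79 in liver Trm (adjusted p = 0.431, 0.871 and 0.663). Each was detected on 1 of 3 whole liver arrays, always array 2, and on at most 1 of 5 liver Trm arrays. The other 4 genes were detected on neither group's arrays.

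Over the 8 group means, the genes most like the average profile of the members were all alpha-defensins. Among 10297 other genes with an official symbol, the highest Pearson correlations were those of Defa27 (0.991), Defa29 (0.990), Defa39 (0.988), Defa38 (0.985), Defa3 (0.985), Defa40 (0.984), Defa23 (0.982) and the pseudogene Defa-ps1 (0.976). The members' own correlations with their average ran from 0.958 for Reg3g to 0.988 for Defa42, except for Lyz1 at 0.775. These 8 points share scaling and arrays, and the members were picked for their level in the intestinal groups. The profile also includes Defa42, itself an alpha-defensin, and whether its probes read the genes listed was not tested. The values are a description and no separate support.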

How the data were processed

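RNA from sorted T cells and whole organs was amplified in 2 rounds and hybridised to one-colour mouse arrays, per the labels' protocols. The authors deposited scanner files with an intensity per spot, background-subtracted by Feature Extraction 11.0.1.1 per the file headers (10.7, with Partek, per the submitters' processing notes). They also deposited a table of log2 values, which matched a quantile normalization of those intensities (largest median absolute difference 0.000465). The design's build is mm9 per the file headers, and probes were named by accession through a RefSeq table of GRCm38.p6 (27508 probes named, 11921 not).

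Here, spots marked as outliers were left out, spots of a probe were averaged, and log2 intensity was scaled to the 75th percentile of the probes that every array in a fit detected (4043 probes among 23 sorted arrays, 1342 among 35). A probe entered a fit if some group detected it on 3 or more arrays, and the brightest stood for its gene. Comparisons with Tem used 8620 genes of the sorted arrays and the others 10635 genes of all arrays, in limma 3.58.1 (R 4.3.3), with one mean per group and two-sided p-values adjusted by Benjamini-Hochberg over all genes. A call is an adjusted p under 0.05. Differences from Tem are on the scale of the sorted arrays and so differ from the all-array values listed per array. For example, Lyz1 in liver Trm averaged -5.75 on the scale of the sorted arrays and -6.54 on the all-array scale. A bound ("at least") sets the brighter group's mean against the lowest detected signal of each dimmer array, or the probe's own signal where higher. A summed level adds the linear scaled intensities of a list's genes. The fits were tested on simulated data.

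The members and lists were chosen with earlier results of these data known. Named genes are all members and their paralogs, the called genes of a list with the largest differences among those detected on every array of the brighter group (at most 4), and the 8 genes most like the members. Muc2, Ear1 and Ear10 were chosen after their values were seen. One gene that this rule names is not reported here. Alternatives were quantile normalization, scaling over all probes, normexp (offset 50) on median spot signals, the deposited values, no and stricter filters, the mean of all probes, array weights, the slide as a block, a fit of 2 groups, each array left out, and, added after seeing the data, lung Trm 1, 2 and 3 left out together. The number of arrays limits the precision.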

Additional observations from a re-analysis of the deposited data

How the results depend on the processing

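Of 557 values of member differences under the alternatives, 530 kept their side of the threshold or, where untested, moved by less than 1 SD. Of the rest, 14 newly passed the threshold, 8 no longer did and 5 moved by more than 1 SD. No difference called in either setting changed sign, but uncalled ones did. Examples in liver Trm against whole liver were Itln1 (-1.05 to 1.00) and Reg3g (-1.33 to 0.77) with single arrays left out. The 8 concerned Defa42, Itln1 and Reg3g in lung Trm against whole lung, given in the report; array weights or single left-out arrays accounted for most of the 14. The 5 were smaller differences from Tem under normexp, such as 7.16 for Itln1. Array weights raised the genes called to 1577, 7795, 6016, 6688 and 6259 in lung Trm against Tem, lung Trm against whole lung, liver Trm against whole liver, intestine Trm against whole intestine and whole lung against whole liver, from 270, 4419, 3429, 3385 and 2451. Leaving out lung Trm 1, 2 and 3 gave 103 for lung Trm against Tem, and no filter gave 13974 for liver Trm against Tem, where 3477 were called. The cause was not tested.

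Leaving out 1 array at a time gave 175 to 295 calls for lung Trm against Tem (175 without lung Trm 2), 2299 to 3906 for liver Trm against Tem (2299 without liver Trm 3, 2313 without liver Trm 6), 1207 to 1472 for intestine Trm against Tem, 3686 to 4532 for lung Trm against whole lung, 2830 to 3409 for liver Trm against whole liver, 2705 to 3359 for intestine Trm against whole intestine and 1855 to 2889 for whole lung against whole liver. The 8 higher alpha-defensins of lung Trm against whole lung were 2 without lung Trm 1, lung Trm 2 or whole lung 2, 3 without whole lung 1, 4 without lung Trm 3 or whole lung 3, 5 under normexp and 1 with only the 2 groups.

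Scaling moved the median of all genes by up to 0.49 (whole lung against whole liver, all probes) and the share of higher calls: from 37.0% to 19.8% (all probes) or 66.4% (normexp) in liver Trm against Tem, from 45.6% to 30.4% in intestine Trm against Tem, from 26.5% to 40.2% (quantile), 42.7% (all probes) or 36.5% (normexp) in liver Trm against whole liver, and from 52.5% to 65.7% or 70.7% in whole lung against whole liver.

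Same-numbered arrays of the groups compared deviated together only in part (r of -0.36 to 0.44 over genes, 9 of 29 pairs best with their own number). With the slide as a replicate block, 233, 3062, 1330, 4418, 3432, 3386 and 2268 genes were called in the 7 comparisons, and no member's call changed, but Defa38 was no longer called in lung Trm against Tem.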

Other observations

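Genes that sense bacteria or induce antimicrobial proteins in other cells were measured beside them. Of 26 on the fixed list, 13 were in the fit against blood Tem, where 1 was higher and 3 lower in intestine Trm. Over all genes 8.1% were higher and 9.65% lower, and counts this small are not read as a change of the list. Ahr, the aryl hydrocarbon receptor, averaged -2.89 in intestine Trm and -6.73 in Tem (adjusted p = 0.000101). The receptors Il18r1, Il6ra and the sensor Nod1 were lower, at -7.06 and -3.28, -4.22 and -1.53, and -2.39 and -0.84 (adjusted p = 1.31e-05, 0.00183 and 0.00209). Against whole intestine 7 of 15 were higher and 4 lower in intestine Trm, where 11.7% and 20.1% of all genes were. The cytokine Il18 averaged -7.91 in intestine Trm and -2.68 in whole intestine (adjusted p = 4.32e-09), and the receptor chain Il10rb -8.27 and -4.87 (adjusted p = 3.69e-05). Ahr averaged -3.49 in intestine Trm and -5.76 in whole intestine (adjusted p = 0.0125).

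No group of 5 or 6 arrays held an outlying value of a member probe by Dixon's test, among 36 sets examined.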
